A study of Mus musculus with 50 samples.

Results

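Homozygous deletion of Repeat B was compared with the wild type in differentiated mouse embryonic stem (ES) cells, over all genes and in both directions. The comparison rests on 4 libraries, 2 wild type (WT) and 2 RepB-/-, out of 50 samples in the series. The 2 libraries of each genotype are replicates 1 and 2 of poly(A) RNA-seq. Every ES line in these groups is a CAST/Ei x 129/Sv/Jae hybrid, so a read that covers a strain difference can be assigned to the 129 or to the CAST copy of its gene. On many autosomes few genes had reads of both copies in fair balance, as given below. The cells had been grown on irradiated fibroblast feeders with LIF, separated from the feeders, kept 4 days as embryoid bodies and then plated for 10 days. The RepB+/- libraries, 2 in number and handled the same way, entered the fit to help estimate the spread and are compared with RepB-/- near the end. The labels do not say how many clones each genotype stands for, nor whether replicates came from separate cultures, so p-values reflect only how far these libraries lie apart, which may be technical. Of 24391 genes in the deposited tables, 15149 passed the filter on low counts and were tested, 562 of them X-linked and 14587 autosomal.

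Xist is the long non-coding RNA that coats the inactive X chromosome of female mammals and starts its silencing. Its sequence holds several tandem repeats. Repeat B is a short cytosine-rich tandem repeat to which the RNA-binding protein hnRNPK binds, and hnRNPK in turn brings Polycomb repressive complexes, which place repressive marks on histones. Differentiating female ES cells are the usual system in which this silencing is set up, and the comparison asks how gene expression differs when no copy of Xist holds the repeat. In the WT libraries nearly all Xist reads came from the 129 copy, so in WT the 129 copy stands for the inactive X and the CAST copy for the active X. In RepB-/- a larger part of Xist reads came from CAST, and the same reading was not carried over to those libraries.

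Total counts were 19676395 and 12505962 in WT and 28045645 and 21649020 in RepB-/-, and between 26.94% and 27.4% of them were assigned to an allele. Principal component 1, with 50.8% of the variance, placed the WT libraries at -33.2 and -45.7 and the RepB-/- libraries at 13.8 and 17.5. No Y-linked gene of 4 had a read in any library. Although the labels call the cells ES cells, the libraries held RNA of many lineages. In WT, summed levels in CPM (the usual counts scaled to library size, here with TMM factors) were 469.4 and 543.4 for 20 pluripotency genes, 1127 and 1232 for 21 heart muscle genes, and 319.3 and 292.3 for 13 macrophage genes. The 20 fibroblast and mesenchyme genes summed to 39930 and 48950 CPM in WT and to 36500 and 41880 CPM in RepB-/-. RNA of remaining feeder fibroblasts and RNA of mesenchyme made by the ES cells cannot be told apart here. The RNA is from whole cultures, so fewer cells of a type and less RNA per cell cannot be told apart either.

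In RepB-/- cells 1101 genes rose and 832 fell against WT by edgeR's quasi-likelihood test at an adjusted p of 0.05, which is 7.27% and 5.49% of the genes tested. Among genes called, 415 rose and 139 fell at least 2-fold, and 73 rose and 18 fell at least 4-fold. The libraries of the genotypes did not overlap in 59.4% of all tested genes, in 74.7% of X-linked ones and in 1931 of the 1933 called genes, so a lack of overlap in a called gene named below is a description and adds nothing to its test. The X chromosome had the highest median fold change and the highest share of called genes of the 20 chromosomes. Of its 562 tested genes 177 (31.5%) rose and 29 (5.16%) fell, while 924 (6.33%) autosomal genes rose and 803 (5.5%) fell. The median log2 fold change was 0.36 over X-linked genes, a fold of 1.28, and 0.01 over all genes tested. On the X chromosome 432 genes had a positive log2 fold change, 76.9% of those tested, against 50.3% on the autosomes. The counts rest on having both libraries of each genotype. When 1 of the 4 libraries compared was left out (here and below, leaving out 1 library means 1 of these 4), between 440 and 605 genes rose and between 247 and 448 fell, with 84 to 111 and 9 to 17 of these on the X chromosome, the lowest counts being those without WT replicate 2.

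**Figure D1:**
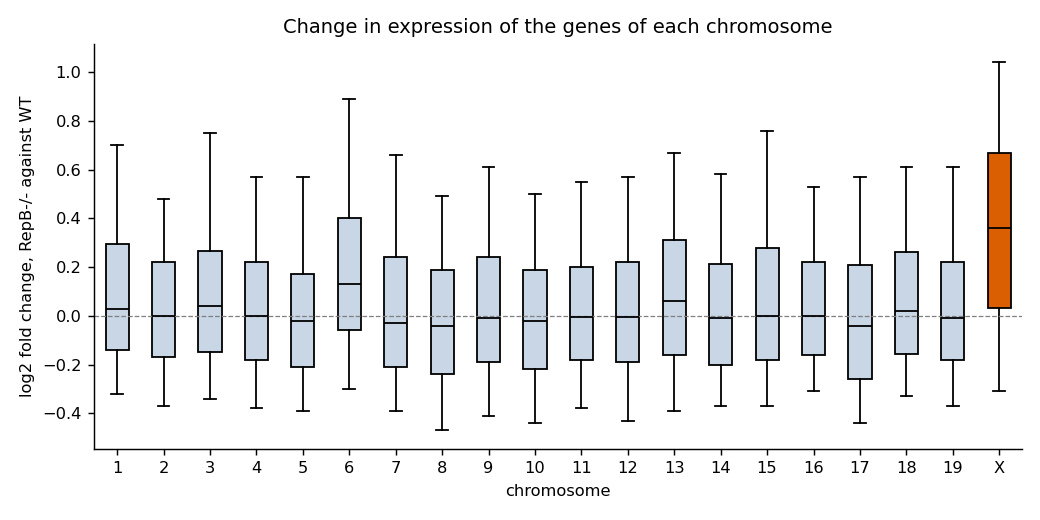
Log2 fold change of RepB-/- against WT (vertical axis) for the tested genes of each chromosome (horizontal axis). Boxes span the middle 50% of genes with the median as a line, and whiskers run from the lowest 10% to the highest 10%. The X chromosome (orange) has a median of 0.36, chromosome 6 has 0.13, and the other autosomes lie between -0.04 and 0.06.

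Among the X-linked genes with the lowest p in the upward direction, Figf, which encodes the growth factor VEGF-D, had 5.01 and 5.34 CPM in WT and 18.1 and 17.8 CPM in RepB-/-, a log2 fold change of 1.80 ± 0.18 (SE, edgeR adjusted p = 2.52e-05). G6pdx, the X-linked glucose-6-phosphate dehydrogenase that opens the pentose phosphate pathway, went from 34.8 and 30.9 CPM to 69.3 and 65.8 CPM (log2 fold change 1.04 ± 0.12, adjusted p = 8.45e-05). In both genes each RepB-/- library lay above each WT library. Pdzd4 rose from 18.99 and 21.5 CPM to 49.2 and 43.0 CPM (1.20 ± 0.13), and Atp6ap2, an accessory subunit of the vacuolar proton pump, from 39.4 and 36.1 CPM to 76.0 and 66.9 CPM (0.92 ± 0.12). The tRNA methyltransferase gene Ftsj1 had 15.5 and 15.3 CPM in WT and 28.8 and 29.4 CPM in RepB-/- (0.92 ± 0.13). The sixth gene, 1810030O07Rik, had 15.0 and 11.8 CPM against 31.6 and 30.4 CPM (1.19 ± 0.15). Of the X-linked genes that the rule for naming genes allows, the highest fold change belonged to the ribosomal protein gene Rpl36a, with 2.89 and 1.78 CPM in WT but 21.6 and 4.16 CPM in RepB-/-. Its libraries of replicate 1 and 2 differed as widely as the genotypes did, the call (adjusted p = 0.0406) was lost when RepB-/- replicate 1 or either WT library was left out and with DESeq2 (adjusted p = 0.272), and near-identical copies elsewhere make its counts uncertain.

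Genes known to be silenced on the inactive X were followed as a list of 42. Of these, 22 rose, none fell, and the median log2 fold change was 0.44, against 0.36 over X-linked genes and 0.01 over all genes. This list and the escape list below hold only X-linked genes, of which 31.5% of those tested rose and 5.16% fell. Hprt, the purine salvage enzyme long used as a marker of X inactivation, was among the genes that rose (1.10), as were Prps1 (0.91), a nucleotide synthesis enzyme, and Sat1, the polyamine acetyltransferase (0.82). Ssr4, a subunit of the translocon-associated complex, had 55.4 and 51.6 CPM in WT and 86.7 and 84.8 CPM in RepB-/- (0.68 ± 0.11, adjusted p = 0.000608). Emd, the nuclear envelope protein emerin, had 78.7 and 75.0 CPM against 120.3 and 122.5 CPM (0.66 ± 0.11, adjusted p = 0.00085). DESeq2 also called none lower, and none was lower at an unadjusted p below 0.05. With 1 library left out, 9 to 15 genes of the list rose. Of 18 genes listed as escaping inactivation 7 rose and 1 fell, with a median of 0.32; Bgn, which encodes the matrix proteoglycan biglycan, rose from 338.6 and 326.8 CPM to 526.8 and 555.4 CPM (0.70 ± 0.12), Syap1 from 41.2 and 33.1 CPM to 60.6 and 61.7 CPM (0.71 ± 0.12), and Car5b, a mitochondrial carbonic anhydrase, fell (-0.64). Of the escape list, 3 to 5 rose and none fell with 1 library left out, and DESeq2 called none lower. The escape genes Kdm5c, Kdm6a and Eif2s3x had log2 fold changes of -0.07, -0.07 and 0.01 and were not called.

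The 29 X-linked genes that fell were led by Esx1, a homeobox gene of the placenta and testis, which had 15.5 and 17.9 CPM in WT and 5.11 and 4.57 CPM in RepB-/- (log2 fold change -1.77 ± 0.18, adjusted p = 2.44e-05). Gpr50, a receptor related to the melatonin receptors, had 57.1 and 53.5 CPM in WT and 19.3 and 15.6 CPM in RepB-/- (-1.66 ± 0.16). AU015836 fell from 96.9 and 93.2 CPM to 48.2 and 35.1 CPM (-1.19 ± 0.14). Ldoc1, one of the genes derived from a retrotransposon capsid, fell from 70.9 and 64.9 CPM to 42.0 and 27.0 CPM (-0.97 ± 0.16). Dmrtc1b had 5.26 and 4.24 CPM in WT against 1.90 and 1.19 CPM (-1.61 ± 0.30), and Mbnl3, a regulator of splicing, had 159.8 and 135.7 CPM against 101.5 and 97.0 CPM (-0.58 ± 0.11). In each of these genes both RepB-/- libraries lay below both WT libraries. Mbnl3 was no longer called without WT replicate 1.

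Allelic reads gave the share of the 129 copy for 377 X-linked genes with at least 20 allelic reads per library on average. Without Xist, the median 129 share of the other 376 genes was 5.3% and 6.57% in the WT libraries and 35.5% and 34.1% in the RepB-/- libraries, or 5.94% ± 0.897 against 34.8% ± 0.981 (SD, n = 2 each). Each RepB-/- library was far above each WT library, though with 2 libraries a side an exact two-sided permutation test cannot give a p below 0.333, the value it gave. Gene by gene, the ratio of 129 to CAST reads moved toward 129 in 234 of the 377 X-linked genes and toward CAST in 1, which was Xist. Over all 11597 genes with enough allelic reads, 2.24% were called toward 129 and 0.19% toward CAST. Chromosome 13, where 96.2% of genes had reads of both alleles in fair balance, had 0 of 418 genes called toward 129 and 1 toward CAST by the same edgeR test. That test ran strict there: 1 of the 418 genes had an unadjusted p below 0.05, the gene called toward CAST, where uniform p-values would give 21, and DESeq2 also called none toward 129. The count of 0 is therefore no measure of how many ratios changed there, and an X-linked gene that was not called is not shown to be unchanged. On the X chromosome 309 genes were below an unadjusted p of 0.05. Most other autosomes carry stretches with hardly any CAST reads, so the share of all autosomal genes says little about them.

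Xist itself was at 909.7 and 902.2 CPM in WT and at 828.4 and 1149 CPM in RepB-/-, so the RepB-/- libraries lay on both sides of the WT ones (log2 fold change 0.13 ± 0.16, adjusted p = 0.66). Its reads came almost wholly from the 129 copy in WT. The CAST copy gave 61 of 5424 allelic reads (1.12%, 95% Wilson interval 0.877% to 1.44%) in WT replicate 1 and 48 of 3372 (1.42%, 1.08% to 1.88%) in WT replicate 2. In RepB-/- it gave 812 of 7496 (10.8%, 10.1% to 11.6%) and 960 of 7512 (12.8%, 12% to 13.6%). In CPM, Xist reads from CAST were 3.15 and 4.07 in WT and 28.0 and 43.9 in RepB-/-, while those from 129 were 277 and 282 in WT and 231 and 299 in RepB-/-. The log2 change of the 129 to CAST ratio was -3.39 ± 0.18 (edgeR adjusted p = 5.92e-73). Counts per gene do not show which reads fall inside the deleted repeat, so they do not check the deletion. Xist and its antisense partner Tsix overlap and the strand setting of the counting is not given in the sources used here, so their reads cannot be told apart; Tsix had 1.08 and 1.36 CPM in WT and 2.21 and 2.70 CPM in RepB-/-, with an adjusted p of 0.0522. None of the 9 tested genes of the X inactivation centre was called by edgeR or by DESeq2, and 1 was higher at an unadjusted p below 0.05.

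The 6 X-linked genes with the lowest p for a shift toward the 129 copy are described here. A low p is reached more easily with many reads. Some genes with fewer reads had larger log2 changes of the ratio, such as Tspan7 (4.95 ± 0.49). For Flna, which encodes the actin cross-linker filamin A, the 129 share went from 5.41% ± 0.222 in WT to 44.8% ± 0.641 in RepB-/- (SD, n = 2), from 453 and 343 reads of 129 to 8664 and 7160. Maged1 went from 3.23% ± 0.777 to 41.9% ± 0.535, and the lysosomal membrane protein gene Lamp2 from 3.51% ± 1.41 to 42.8% ± 0.529. For Bgn the shares were 2.14% ± 0.452 and 29.3% ± 0.862, a smaller end point than in the other genes. Gpc3, a glypican bound to the cell surface, had 6.88% ± 1.34 in WT and 42.6% ± 0.655 in RepB-/-, and the deubiquitinase gene Usp11 had 4.43% ± 0.0375 and 39.8% ± 0.555. The log2 change of the ratio in these 6 genes ran from 3.35 to 4.46, and in none did libraries overlap between genotypes. That lack of overlap does not set the 6 apart. Both RepB-/- shares lay above both WT shares in 204 of the 214 X-linked genes with at least 50 allelic reads in each library compared. Of the 6, Lamp2 and Bgn also rose in all reads, Lamp2 no longer so without WT replicate 2. Flna (0.52 ± 0.17) and Gpc3 (0.41 ± 0.15) had adjusted p of 0.0634 and 0.0844, and were called by DESeq2 (adjusted p = 0.0012 and 0.0146) and by edgeR with the 4 compared libraries only (0.0111 and 0.0191). Maged1 had 1231 and 1342 CPM in WT and 1351 and 1464 CPM in RepB-/- (0.13 ± 0.16, adjusted p = 0.655), so its total was not called, though its libraries did not overlap.

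**Figure D2:**
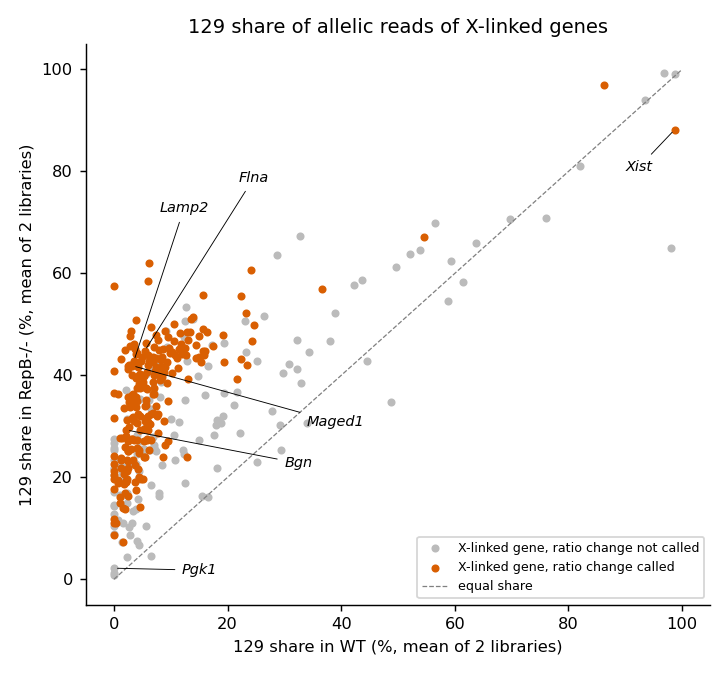
Share of allelic reads from the 129 copy for 377 X-linked genes, mean of 2 WT libraries (horizontal axis, percent) against mean of 2 RepB-/- libraries (vertical axis, percent). Orange points had a called change of the 129 to CAST ratio and the dashed line marks equal shares. Most genes lie well above the line, while Xist lies below it and Pgk1 near the lower left corner.

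The shift was not of the same extent in every gene. The 129 share in WT was under 10% in 161 of the 214 X-linked genes with at least 50 allelic reads in each of the 4 libraries. It was 10% to 50% in 45 of them and 50% or more in 8. In RepB-/- 5 had a share under 10%, 29 a share of 10% to 20%, 168 of 20% to 50% and 12 of 50% or more. The lowest was Pgk1, the glycolytic enzyme phosphoglycerate kinase, whose 129 copy gave 0 of 196 and 0 of 232 reads in WT, which allows shares of up to 1.53% and 1.29%, and 6 of 357 (1.68%, 95% Wilson interval 0.772% to 3.62%) and 6 of 224 (2.68%, 1.23% to 5.72%) reads in RepB-/-. Col4a6, a chain of basement membrane collagen, went from 1.59% ± 0.197 to 7.38% ± 1.24, and its ratio change was called (2.32 ± 0.30, adjusted p = 1.03e-12). S100g, a calcium-binding protein gene, gave 0 of 125 and 0 of 59 reads of 129 in WT, which allows up to 2.4% and 5.08%, and shares of 12.8% (9.72% to 16.6%) and 4.65% (2.38% to 8.91%) in RepB-/-, whose intervals do not overlap. The shares of Cxx1c, Dgkk and 4933402E13Rik in RepB-/- averaged 4.35%, 8.72% and 10.3%, with no called change of the ratio. Intervals and limits cover counting error only. Genes of the escape list began at very different shares. Bgn is one of them, at 2.14% in WT, while Kdm5c had 23.5% ± 1.52 in WT and 42.0% ± 1.37 in RepB-/-, Ddx3x 19.4% ± 1.17 and 42.6% ± 0.651, and the ratio changes of these 3 genes were called.

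The reads of each copy were also scaled by the size of the whole library, a test added after values were seen. Summed over the 376 genes, reads of the 129 copy were 521 and 536 CPM in WT and 2500 and 2370 CPM in RepB-/-. Those of the CAST copy were 4730 and 4720 CPM in WT and 3900 and 4010 CPM in RepB-/-. The 129 copies gave 4.61 times as much and the CAST copies 0.837 times as much, and the sum of both was 1.22 times as high. Per gene, the median log2 change was 2.53 for 129 reads and -0.137 for CAST reads with a pseudocount of 0.05 CPM, and 1.45 and -0.12 with 0.5 CPM, and again 0.333 was the smallest p 2 libraries a side can give. Of 391 X-linked genes tested by edgeR on CAST reads alone, 16 fell and 2 rose, against 0.804% and 0.687% of all genes so tested. On chromosome 13, 5 of 414 fell and 2 rose. The count of 16 dropped to between 3 and 6 when 1 of the 4 libraries was left out.

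X-linked genes were also grouped by their call in all reads, and the reads of each copy were described per group. In the 139 X-linked genes with allelic reads that rose in all reads, the median 129 share went from 8.92% to 42.9%, with a median log2 change of 2.81 in 129 reads and 0.13 in CAST reads. In the 23 that fell, the share went from 4.08% to 24.6%, with median log2 changes of 2.05 in 129 reads and -1.04 in CAST reads. In the other 214 the medians were 2.42 and -0.24. These groups were formed on the same reads, so the medians are a description. Most allelic reads in WT were CAST, so genes grouped by a fall of all reads largely have lower CAST reads by construction. Esx1 is one of the genes that fell. Its CAST reads were 6.55 and 6.44 CPM in WT and 1.55 and 2.01 CPM in RepB-/-. Its 129 reads were at 0.31 and 0.678 CPM and at 0.552 and 0.686 CPM, a smaller change than the median of that group. Bcor, the corepressor of a Polycomb complex, had 20.0 and 23.5 CPM of CAST reads in WT and 10.3 and 10.7 CPM in RepB-/-, and its 129 reads went from 0.929 and 1.1 CPM to 6.63 and 7.31 CPM. Dusp9, a MAP kinase phosphatase, had CAST reads of 63.1 and 73.9 CPM in WT against 35.8 and 27.7 CPM, 129 reads of 11.4 and 15.5 CPM against 33.1 and 26.6 CPM, and no called change of all reads (-0.33). Dusp9 was picked after its values were seen.

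**Figure D3:**
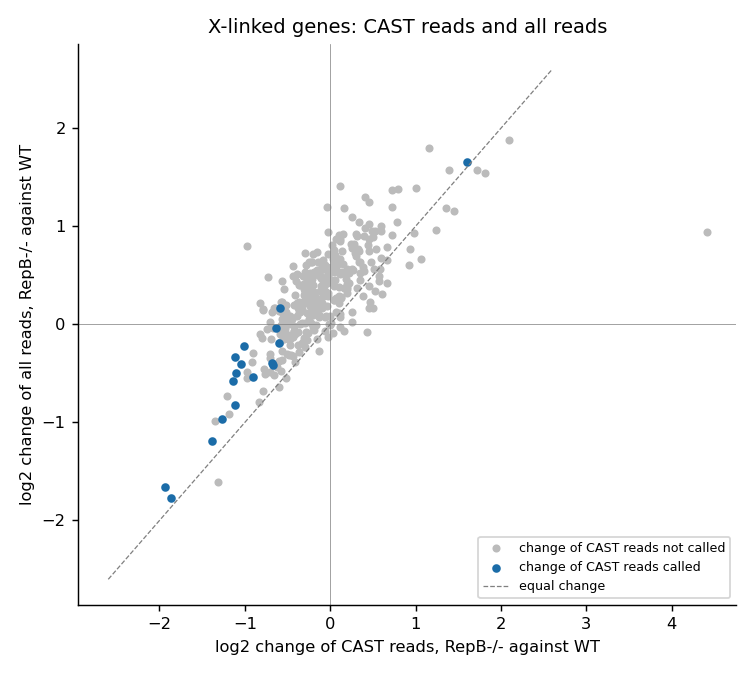
Log2 change of CAST reads (horizontal axis) and of all reads (vertical axis), RepB-/- against WT, for X-linked genes other than Xist with both measures. Blue points had a called change of CAST reads, and the dashed line marks equal change. Most genes lie above the line, and of the genes with a called change of CAST reads all but 1 lie to the left of 0.

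Outside the X chromosome, many of the genes with the largest falls are made in heart muscle. Of 21 tested genes of the heart muscle list 14 fell and none rose, with a median log2 fold change of -0.98. Over all genes tested 5.49% fell and 7.27% rose, shares to be set beside the count of each list below as well. Myh7, the slow or beta myosin heavy chain, had 91.2 and 98.6 CPM in WT and 19.6 and 21.3 CPM in RepB-/- (-2.21 ± 0.11, edgeR adjusted p = 3.13e-08). Myh6, the alpha heavy chain and its neighbour on chromosome 14, had 164.7 and 201.8 CPM in WT and 34.7 and 51.4 CPM in RepB-/- (-2.09 ± 0.16, adjusted p = 1.75e-06). The libraries of the genotypes did not overlap, which the rule for naming these genes required. Actc1, cardiac actin, went from 99.6 and 93.7 CPM to 43.0 and 40.8 CPM (-1.21 ± 0.10), and Actn2, the alpha-actinin of the Z disc, from 46.6 and 61.6 CPM to 17.8 and 20.9 CPM (-1.48 ± 0.14). The giant sarcomere protein gene Ttn had 27.0 and 28.7 CPM in WT but 5.45 and 13.6 CPM in RepB-/-, so its RepB-/- libraries were apart from each other. Csrp3, which acts at the Z disc, fell by 1.53 on the log2 scale, and so did Hrc and Alpk2, a calcium-binding protein and a kinase of heart muscle outside the list, by 1.63 and 1.55. Troponin and light chain genes fell less, with Tnnt2 at -0.75, Tnnc1 at -0.71 and Myl3 at -0.77. Myl2, Myl7 and Nppb had log2 fold changes of -0.38, -0.24 and 0.24 and were not called. None was higher at an unadjusted p below 0.05 or by DESeq2. Without WT replicate 2, 9 of the list fell, and without another of the libraries 12 to 14 did.

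Of 13 transcription factors of the heart 4 fell and 1 rose, with a median of -0.16. Over all genes tested 5.49% fell and 7.27% rose, so the 1 that rose is near that share. Irx4, a factor of the heart ventricle, had 29.7 and 33.7 CPM in WT and 9.18 and 7.18 CPM in RepB-/- (-1.94 ± 0.17, adjusted p = 7.16e-06). Hand1, which also acts in trophoblast, went from 257.0 and 309.0 CPM to 140.0 and 144.9 CPM (-0.99 ± 0.13), Nkx2-5 fell (-0.83), and Tbx5 fell from 17.9 and 18.9 CPM to 11.04 and 12.3 CPM (-0.66 ± 0.15). Gata5 rose (0.58 ± 0.15), a call that was lost without RepB-/- replicate 2 or either WT library, and Tbx5 was lost without RepB-/- replicate 1 or WT replicate 2, where 2 of the list fell. Gata4, Gata6, Tbx20 and Mef2c had log2 fold changes between -0.16 and 0.32, none of them called. The summed level of the 13 genes was 1369 and 1415 CPM in WT and 1101 and 1272 CPM in RepB-/-. Of 15 skeletal muscle genes 10 were under the filter on low counts, so the list says little about that lineage. Of the 5 tested, 2 rose and none fell. Tnnt3 went from 10.5 and 13.7 CPM to 23.6 and 25.9 CPM (1.05 ± 0.17), and Myh8 was close to the threshold (edgeR adjusted p = 0.0493). DESeq2 called 1 of the 5 higher. When any of the 4 libraries was left out, 1 of the 5 rose.

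The promoters of 3 heart genes that fell and of Nanog, which rose, are shown because their genes moved in opposite directions. They are RefSeq windows on GRCm38.p6 that run from 250 bases before to 50 bases after an annotated start, 5′ to 3′ on the gene's strand: Myh6 at chr14:54966558-54966857 (-), Myh7 at chr14:54994577-54994876 (-), Actc1 at chr2:114052826-114053125 (-) and Nanog at chr6:122707239-122707538 (+). Myh7 and Nanog have 2 such windows each, and 1 is printed. Capitals mark CATTCC on either strand (Myh6, Myh7), TATAAA (Myh6, Actc1), a CArG box (Actc1) and the joined Sox and octamer motif on the other strand (Nanog).
Myh6: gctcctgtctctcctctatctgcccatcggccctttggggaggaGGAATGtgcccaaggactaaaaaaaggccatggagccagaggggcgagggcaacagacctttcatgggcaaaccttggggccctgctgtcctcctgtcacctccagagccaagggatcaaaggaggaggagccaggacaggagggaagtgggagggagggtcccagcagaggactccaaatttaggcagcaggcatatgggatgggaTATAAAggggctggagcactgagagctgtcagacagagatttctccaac
Myh7: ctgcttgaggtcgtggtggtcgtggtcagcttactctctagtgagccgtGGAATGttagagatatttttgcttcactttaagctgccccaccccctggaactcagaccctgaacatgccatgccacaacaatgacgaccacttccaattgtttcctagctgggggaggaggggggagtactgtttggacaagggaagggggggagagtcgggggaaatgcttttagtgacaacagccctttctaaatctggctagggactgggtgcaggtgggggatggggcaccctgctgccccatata
Actc1: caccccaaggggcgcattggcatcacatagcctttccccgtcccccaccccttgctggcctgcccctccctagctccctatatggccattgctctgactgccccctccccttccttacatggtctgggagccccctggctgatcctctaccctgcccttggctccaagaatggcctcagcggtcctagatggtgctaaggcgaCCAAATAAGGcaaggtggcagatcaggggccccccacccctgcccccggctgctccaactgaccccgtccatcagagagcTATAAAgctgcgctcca
Nanog: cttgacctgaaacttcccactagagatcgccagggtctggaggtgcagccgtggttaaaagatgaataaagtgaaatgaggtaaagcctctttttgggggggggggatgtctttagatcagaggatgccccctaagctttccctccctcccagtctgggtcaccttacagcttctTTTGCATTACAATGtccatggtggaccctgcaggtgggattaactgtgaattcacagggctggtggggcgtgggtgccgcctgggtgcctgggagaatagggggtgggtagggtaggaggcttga

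CATTCC is the letter sequence of the M-CAT element bound by TEAD factors, the CArG box is the site of serum response factor, and the joined motif sets the letters of a Sox site beside those of an octamer site. Searched on both strands, CATTCC was in the windows of 6 of the 14 heart muscle genes that fell (Myh6, Myh7, Tnnt2, Tnnc1, Myl3 and Ttn) and in those of 16.6% of all 27025 genes with a window. A CArG box was in 2 of the 14 (Actc1 and Myl3) and in 1.81% of all genes, and TATAAA was in 2 of the 14 (Myh6 and Actc1) and in 15.7% of all genes. Of the 10 matched pluripotency genes that rose, CATTCC was in 1 (Zfp42), TATAAA in 1 (Tfcp2l1) and a CArG box in none. The joined Sox and octamer motif was in the windows of 1 of the 10 matched pluripotency genes that rose, Nanog, which was also the 1 gene of all 27025 to hold it. ATGCAAAT was in 1 of these 10 (Zfp42) and in 1.97% of all genes. AGATAA was in 1 of the 14 (Tnnt2) and in 12.7% of all genes. A match says only that these letters are present.

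Pluripotency genes moved the other way. Of 20 tested 14 rose and 2 fell, against 7.27% and 5.49% of all genes tested, with a median log2 fold change of 1.08. Pou5f1, which encodes the core pluripotency factor OCT4, had 32.1 and 39.0 CPM in WT and 98.2 and 82.0 CPM in RepB-/- (1.35 ± 0.15, adjusted p = 5.61e-05). Nanog went from 25.5 and 30.8 CPM to 75.7 and 67.6 CPM (1.36 ± 0.15), and the nuclear receptor gene Esrrb from 15.3 and 18.1 CPM to 40.8 and 37.7 CPM (1.24 ± 0.14). Tcl1, a cofactor of the kinase AKT, had 3.82 and 3.39 CPM in WT and 12.6 and 9.87 CPM in RepB-/- (1.63 ± 0.20). Each of these genes was higher in both RepB-/- libraries than in either WT library. Sox2 (1.10), Zfp42 (1.46), Dppa4 (1.99) and Tdgf1 (1.46) rose too. Tbx3 (-0.62) and Sall4 (-0.46), which also act in differentiated tissue, fell, though none of the list did without RepB-/- replicate 1 or WT replicate 2. Klf4, Klf5, Utf1 and Lin28a were not called. With 1 library left out, 11 to 13 of the list rose. Dnmt3l, the cofactor of the de novo DNA methyltransferases in ES and germ cells, rose from 7.74 and 9.41 CPM to 24.4 and 21.2 CPM (1.43 ± 0.19), while the other 7 DNA methylation genes tested had log2 fold changes between -0.33 and 0.25 and were not called.

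Among 15 tested genes of Nodal signalling and the epiblast 7 rose and 1 fell, with a median of 1.00. For this list and the germline list, the shares over all genes tested are 7.27% that rose and 5.49% that fell. Lefty1 and Lefty2, secreted inhibitors of Nodal, were among the 15 genes with the highest fold changes by the rule for naming genes. Lefty1 had 4.90 and 3.90 CPM in WT and 25.9 and 18.4 CPM in RepB-/- (2.31 ± 0.22, adjusted p = 1.25e-05), and Lefty2 had 5.16 and 6.95 CPM against 27.5 and 23.5 CPM (2.10 ± 0.20). The ligand Nodal went from 4.03 and 4.41 CPM to 10.7 and 8.64 CPM (1.21 ± 0.20), and the related ligand Gdf3 from 3.04 and 3.56 CPM to 8.21 and 9.00 CPM (1.39 ± 0.21). Inhibitors and ligands thus rose together. Fgf5 (2.30), a marker of the primed epiblast, rose and Pou3f1 (-0.79) fell. Between 4 and 5 of the 7 calls were left without 1 library. Of 14 germline genes 4 rose, led by Dppa3, a maternal factor also made in ES cells, with 2.53 and 3.31 CPM in WT and 11.6 and 7.95 CPM in RepB-/- (1.78 ± 0.26). The other 3 were Tdrd12, Prdm1 and Hormad1, and 1 or 2 of the 4 were left without 1 library. Ddx4 and Dazl, genes of later germ cells, were not called.

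The response list of MAP kinase signalling and X-linked dosage held 13 genes, of which 7 rose, with a median of 0.42. Of the 13 genes 6 are X-linked. Among genes tested 31.5% of X-linked and 6.33% of autosomal ones rose, and the X-linked median was 0.36. Nr0b1, an X-linked repressor in the ES cell network, had 1.65 and 2.20 CPM in WT and 7.45 and 6.40 CPM in RepB-/- (1.88 ± 0.34, adjusted p = 0.00185). Etv5 (0.71), Etv4 (0.86), Spry4 (0.59) and Dusp6 (0.42), genes that follow ERK signalling, rose. X-linked Dusp9 and Klhl13 had log2 fold changes of -0.33 and -0.02 and were not called. With 1 library left out, 3 to 5 of the list rose, the fewest without WT replicate 2; 1 gene was lower at an unadjusted p below 0.05 and DESeq2 called none lower.

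**Figure D4:**
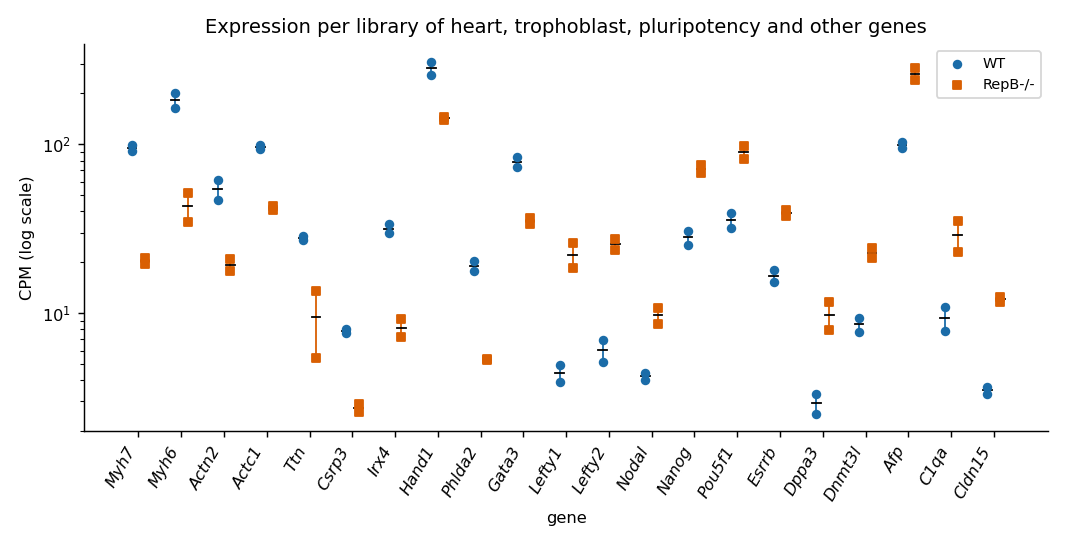
CPM (log scale, vertical axis) of 21 genes in each library, WT as blue circles and RepB-/- as orange squares, with a black bar at the mean of the 2 libraries. Heart and trophoblast genes on the left are lower in RepB-/-, and Nodal, pluripotency, endoderm, macrophage and mesothelium genes on the right are higher.

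Endoderm and yolk sac genes rose in 6 of 21 cases, against 7.27% of all genes tested, none fell, and the median was 0.48. Afp, alpha-fetoprotein of yolk sac and fetal liver, went from 102.7 and 95.5 CPM to 283.0 and 239.2 CPM (1.40 ± 0.12, adjusted p = 8.51e-06), and Apob, the scaffold of lipoproteins, from 61.1 and 59.4 CPM to 135.5 and 137.8 CPM (1.18 ± 0.12). Trf, transferrin, had 6.76 and 5.09 CPM in WT and 24.9 and 19.7 CPM in RepB-/- (1.89 ± 0.18), and Cubn, the endocytic receptor cubilin, had 16.1 and 11.95 CPM against 33.0 and 32.8 CPM (1.21 ± 0.16). The endoderm factors Sox17, Foxa2 and Hnf4a had log2 fold changes of -0.15, 0.13 and 0.48 and were not called. With 1 library left out, 4 to 7 of the list rose, while 11 rose with the 4 compared libraries only and 12 with no filter or with a replicate block. None was lower at an unadjusted p below 0.05 or by DESeq2.

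Macrophage genes rose in 11 of 13 cases, against 7.27% of all genes tested, with a median of 0.81. C1qa, a chain of complement C1q, had 10.8 and 7.80 CPM in WT and 23.1 and 35.0 CPM in RepB-/- (1.61 ± 0.26), and Adgre1, the F4/80 antigen, had 8 and 6.95 CPM against 13.5 and 18.5 CPM (1.08 ± 0.19). Fcer1g went from 19.6 and 15.3 CPM to 30.5 and 36.8 CPM and C1qb from 39.8 and 41.3 CPM to 64.6 and 78.7 CPM. The summed level of the 13 genes was 444.4 CPM in RepB-/- replicate 1 and 588.5 CPM in replicate 2, against 319.3 and 292.3 CPM in WT. The count was 5 without RepB-/- replicate 2, 6 without WT replicate 2 and 13 without RepB-/- replicate 1. In blood of the primitive lineage 1 of 6 genes, Klf1, was called, at 0.52 and 0.50 CPM in RepB-/- and at 0.05 and 0 CPM in WT, too few reads for a reliable fold. The other 5 had negative log2 fold changes and were not called. The median of the list was -0.66, and DESeq2 called none of its genes.

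Epithelial genes were lower, with 6 of 12 fallen, none risen and a median of -0.45. Over all genes tested 5.49% fell and 7.27% rose. Krt8, which pairs with keratin 18 in simple epithelia, had 410.1 and 423.7 CPM in WT and 292.1 and 212.4 CPM in RepB-/- (-0.72 ± 0.14), and Krt18 had 587.7 and 640.7 CPM against 421.3 and 329.8 CPM (-0.71 ± 0.14). Cdh1, E-cadherin, had 320.4 and 350.8 CPM against 237.7 and 222.3 CPM (-0.54 ± 0.11), and the splicing regulator Esrp1 fell by 0.54. This list depended on RepB-/- replicate 2: without it, none of the 12 was called, and 2 fell without WT replicate 2. A further 3 lists were added after their genes had been noticed among the calls, and their counts support nothing by themselves. In trophoblast, 13 of 22 genes fell and none rose (median -0.70). Gata3 went from 73.3 and 83.9 CPM to 36.7 and 33.7 CPM (-1.15 ± 0.11), and Gata2 from 266.7 and 311.7 CPM to 141.4 and 116.2 CPM (-1.16 ± 0.12). In surface ectoderm, 9 of 16 fell and 1, Krt17, rose; Tgm1, the transglutaminase of the epidermis, went from 26.4 and 27.9 CPM to 11.9 and 9.28 CPM (-1.35 ± 0.15), and Dsp, desmoplakin, from 443.1 and 511.5 CPM to 266.5 and 274.8 CPM (-0.82 ± 0.12). Of the surface ectoderm list, 5 to 7 fell with 1 library left out. In mesothelium and epicardium, 9 of 15 rose and none fell. There, Cldn15 went from 3.66 and 3.31 CPM to 11.7 and 12.4 CPM (1.78 ± 0.19), Gpm6a from 5.47 and 4.24 CPM to 14.98 and 14.9 CPM (1.6 ± 0.19) and Lrrn4 from 65.8 and 56.5 CPM to 111.7 and 121.5 CPM (0.93 ± 0.11).

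Imprinted genes were called in 6 of 28 cases, 5 of them downward, with a median of -0.03. Among all genes tested 12.8% were called and 5.49% fell. Phlda2, a growth-restraining gene of the placenta, had 17.9 and 20.3 CPM in WT and 5.35 and 5.26 CPM in RepB-/- (-1.84 ± 0.17, adjusted p = 1.25e-05), and Ascl2, a trophoblast factor of the same cluster on chromosome 7, had 18.6 and 21.9 CPM against 7.63 and 5.30 CPM (-1.63 ± 0.19). Cdkn1c, the cell cycle inhibitor of that cluster, fell from 150.5 and 177.3 CPM to 113.4 and 89.1 CPM (-0.69 ± 0.13), as did Peg10 (-0.85) and Igf2r (-0.42). Grb10, an adaptor that restrains insulin signalling, rose from 13.8 and 11.95 CPM to 25.2 and 24.9 CPM (0.95 ± 0.15). Phlda2, Ascl2 and Peg10 are also trophoblast genes. Igf2, H19, Peg3 and Dlk1 were not called. Without WT replicate 2 or either RepB-/- library, 3 of the list fell.

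**Figure D5:**
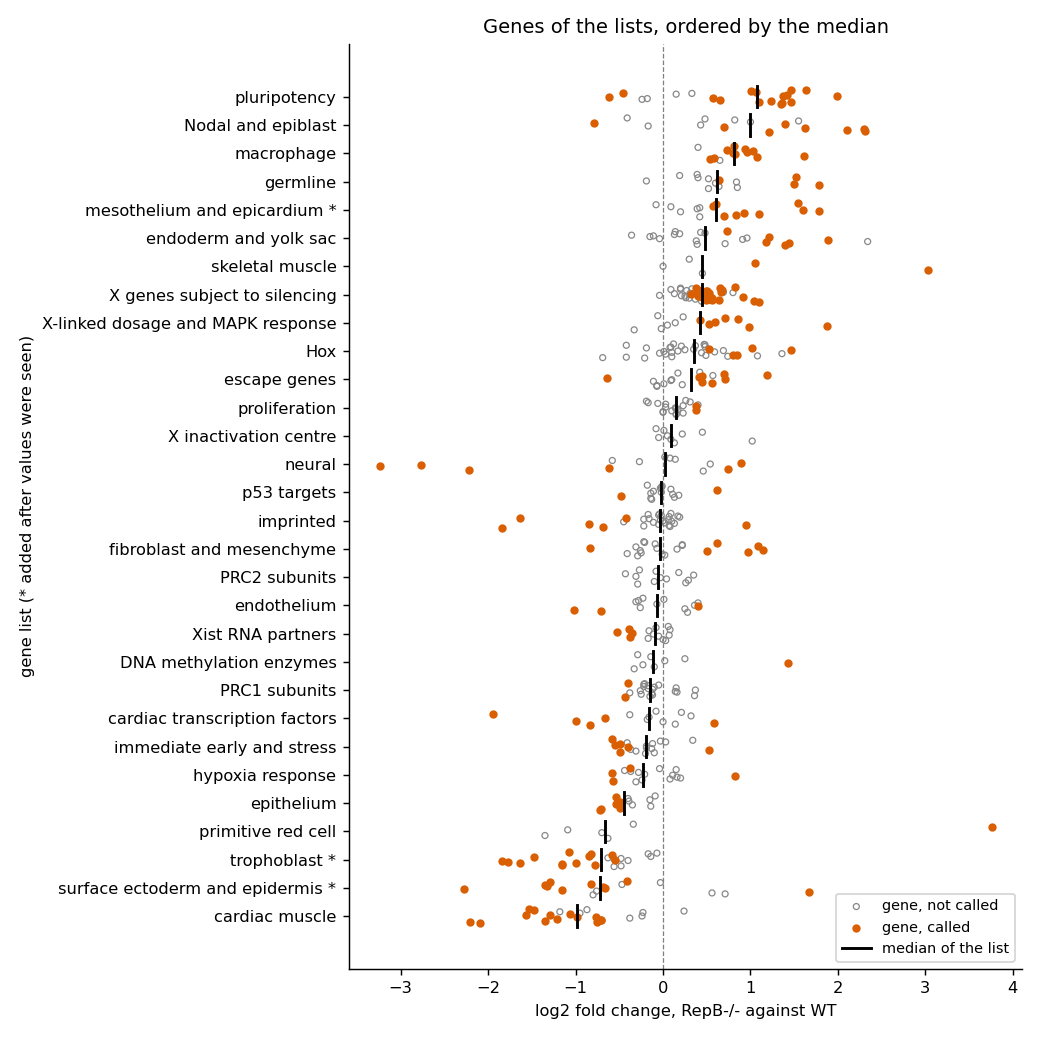
Log2 fold change of RepB-/- against WT (horizontal axis) for every tested gene of each list with at least 5 tested genes (rows). Filled orange points were called, open points were not, and the black bar is the median of the list. Medians run from -0.98 in heart muscle to 1.08 in pluripotency, and lists marked with an asterisk were added after values were seen.

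Genes of the Polycomb complexes and of Xist's protein partners had small fold changes where they were called. Among all genes tested 7.27% rose and 5.49% fell. None of 12 genes of PRC2, the complex that methylates lysine 27 of histone H3, was called by edgeR or DESeq2 (median -0.06), and at an unadjusted p below 0.05 3 were higher and 4 lower. Other edgeR fits did call some: 1 rose and 1 fell with the 4 compared libraries only, and 2 rose and 4 fell with a replicate block. Phf1 had 54.3 and 53.7 CPM in WT and 36.6 and 43.7 CPM in RepB-/- (-0.43 ± 0.14, adjusted p = 0.051), and Mtf2 had 54.2 and 50.1 CPM against 63.5 and 69.3 CPM (0.35 ± 0.12, adjusted p = 0.0778). Of 21 genes of PRC1, which ubiquitinates histone H2A, Ring1 (-0.43 ± 0.13) and X-linked Bcor (-0.40 ± 0.11) fell, and 0 or 1 of them did so without 1 library. Of 14 genes for proteins that bind Xist or help it silence, 4 fell: Yy1, which tethers Xist to chromatin, had 178.3 and 173.2 CPM in WT and 128.0 and 116.1 CPM in RepB-/- (-0.53 ± 0.10, adjusted p = 0.00359). Rbm15 (-0.38), Ciz1 (-0.35) and Safb (-0.39) were close to the threshold, and 0 to 2 of the 4 were called without 1 library. Hnrnpk, the partner of Repeat B, had a log2 fold change of 0.03, Spen -0.17 and Hnrnpu 0.00, none of them called. Of 33 Hox genes, classical Polycomb targets, 5 rose, none fell, and the median was 0.35. Hoxb9 had 1.5 and 1.19 CPM in WT and 3.35 and 4.25 CPM in RepB-/- (1.46 ± 0.30), and Hoxa10 had 5.83 and 4.24 CPM against 8.46 and 10.1 CPM (0.85 ± 0.21). DESeq2 called 2 of the 33 higher and none lower. No Hox gene was called without RepB-/- replicate 2, and 1 was without WT replicate 2.

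Other lineages and states showed mixed calls. The shares over all genes tested, to be set beside each count below, are 7.27% that rose and 5.49% that fell. In the neural list 2 of 13 genes rose and 4 fell. Nes, the intermediate filament of progenitors, rose from 72.04 and 75.8 CPM to 124.7 and 121.7 CPM (0.74 ± 0.11), and Stmn2 rose from 9.96 and 8.90 CPM to 18.9 and 16.1 CPM (0.89 ± 0.17). The factors Pax6 (2.06 and 2.20 CPM against 0.48 and 0.41 CPM) and Neurog2 fell at low levels, the neuronal tubulin gene Tubb3 fell too (-0.62), and 0 to 3 genes of the list fell without 1 library. In endothelium, Kdr, the VEGF receptor 2, fell from 99.9 and 110.7 CPM to 46.5 and 57.4 CPM (-1.02 ± 0.14) and Cdh5, VE-cadherin, from 120.1 and 134.5 CPM to 79.8 and 75.5 CPM (-0.71 ± 0.10), while Pecam1 and Tek were not called. Eng, a TGF-beta coreceptor, rose (0.40), and this call was lost without RepB-/- replicate 2 or either WT library. In the fibroblast list 5 of 20 genes rose and 1 fell. Dcn, decorin, rose from 217.2 and 171.8 CPM to 367.9 and 393.8 CPM (0.97 ± 0.13), S100a4 from 10.1 and 9.58 CPM to 23.2 and 18.7 CPM (1.09 ± 0.16), and Postn, periostin, fell from 971.0 and 1045 CPM to 536.8 and 591.1 CPM (-0.84 ± 0.14). Col1a1, Col1a2 and Vim had log2 fold changes of -0.29, 0.02 and -0.31 and were not called. Without WT replicate 2 or either RepB-/- library, 3 of the list rose. Of 20 proliferation genes 2 rose, Mcm6 and Bub1, both by 0.38, and 0 or 1 of them without 1 library. Of 18 immediate early and stress genes 5 fell and 1 rose, with Myc at -0.58, Jun at -0.49 and Egr1 at 0.53, and all 6 calls were lost without RepB-/- replicate 2 or WT replicate 2. Of 15 p53 targets, X-linked Eda2r rose and Bbc3 fell, shares near those over all genes (7.27% and 5.49%), and neither was called without WT replicate 2. Of 16 hypoxia genes Car9 rose and 3 fell, among them Ndrg1 (-0.58) and Slc2a1 (-0.57), the glucose transporter. None of the list fell without RepB-/- replicate 2 or WT replicate 2 and 1 fell without either other library, while 5 fell by DESeq2.

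Several of the genes with the highest fold changes belong to none of the lists. Ltbp2, which binds fibrillin in the matrix, had 13.01 and 15.7 CPM in WT and 57.2 and 64.4 CPM in RepB-/- (2.09 ± 0.14, adjusted p = 9.11e-07). Fbln5, an elastic fibre protein, had 13.6 and 11.4 CPM against 46.6 and 45.0 CPM (1.86 ± 0.14), and Col6a6, a collagen VI chain, had 1.96 and 2.29 CPM against 7.77 and 13.2 CPM (2.30 ± 0.28). All of these encode proteins of the extracellular matrix. Ptprq, a receptor phosphatase, had 2.37 CPM in both WT libraries and 11.2 and 14.8 CPM in RepB-/- (2.44 ± 0.22). Kcnab1, a subunit of potassium channels, had 7.59 and 6.19 CPM against 30.6 and 32.9 CPM (2.19 ± 0.15, adjusted p = 1.22e-06). Pkhd1l1 (2.09), Trh, the thyrotropin-releasing hormone gene (2.06), and Plscr2 (1.80) complete the highest 15. At the other end, Slc24a2, a sodium and calcium exchanger, had 7.33 and 10.1 CPM in WT and 2.24 and 2.15 CPM in RepB-/- (-1.97 ± 0.25). Spon1, the matrix protein spondin 1, had 39.7 and 49.3 CPM against 14.1 and 13.3 CPM (-1.70 ± 0.15), and Bmp8b, a ligand of the BMP family, had 6.61 and 8.48 CPM against 3.28 and 2.47 CPM (-1.36 ± 0.25).

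Few genes were called between RepB-/- and RepB+/-. By edgeR 3 genes were higher (0.0198% of those tested) and 10 lower (0.066%) in RepB-/-, none of them X-linked, and DESeq2 called 13 and 17, of which 1 was X-linked. At an unadjusted p below 0.05 by edgeR there were 1003 genes, 43 of them X-linked, both more than uniform p-values would give. The largest difference was Mfi2, which encodes melanotransferrin, an iron-binding surface protein. It had 34.2 and 49.5 CPM in RepB+/-, 0.79 and 1.42 CPM in RepB-/- and 5.68 and 7.12 CPM in WT (RepB-/- minus RepB+/- -5.25 ± 0.26 on the log2 scale, adjusted p = 2.10e-08), so the 3 genotypes did not overlap and WT lay in between. Against WT it fell by 2.55 on the log2 scale. Ncbp2 and Pak2, also on chromosome 16, were lower in RepB-/- than in RepB+/- and were not called against WT. Myh7 had 36.9 and 34.8 CPM in RepB+/-, between the other genotypes, and was lower in RepB-/- (-0.81 ± 0.11, adjusted p = 0.021). Trh, at 56.4 and 34.3 CPM in RepB+/-, was lower in RepB-/- (-1.27 ± 0.20), as were Zic2, Lin28a and the endothelial genes Dll4, Sox18 and Plvap. Pappa2, a protease of growth factor binding proteins, was higher (18.6 CPM in both RepB+/- libraries against 29.9 and 38.9 CPM), as were Car9 and Gpnmb. The RepB+/- libraries differed in depth (26782887 and 8000722 counts). How many genes were called changed widely when 1 of the 6 libraries was left out, and what part depth had in this was not tested. A gene that was not called is not shown to be equal.

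Chromosome 6 was the autosome with the highest median log2 fold change, 0.13, with 95 genes that rose and 23 that fell among 773 tested. Its per-library medians against the WT mean were 0.01 and -0.01 in WT, 0.14 and 0.13 in RepB-/- and 0.13 and 0.11 in RepB+/-. Nanog, Dppa3, Gdf3, Trh, Gata2, Hoxa10 and Hoxa11 lie on it. In 118 chromosome 6 genes with a 129 share between 20% and 80% in WT, the median share was 38.2% and 37.8% in WT and 37.2% and 35.9% in RepB-/-. What part the genes of the lists have in this median was not tested. On chromosome 8 the corresponding shares of 346 genes were 34.1% and 34% in WT and 34% and 34.9% in RepB-/-, below the 50% of chromosome 13 in both genotypes, and its median log2 fold change was -0.04.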

How the data were processed

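Per the file headers, the authors deposited whole-number counts of reads per gene for each library (all reads, and reads given to the 129 or CAST allele), with gene positions. Per the submitters' processing notes, the build is mm9 and the series used TopHat, Novoalign, SAMtools, bedtools and featureCounts; versions, strand and the treatment of reads with several hits are not given in the sources used here. The allele columns headed mus and cas were taken as 129 and CAST. Counts of 6 ES libraries were fitted with edgeR 4.0.16 (filterByExpr, minimum count 10, minimum total 15, TMM, quasi-likelihood test, genotype only), with Benjamini-Hochberg adjustment over all genes at 0.05. Common biological variation was 9.49%. The 129 to CAST ratio was tested in edgeR with a term for each library and a term for how the allele effect differs by genotype, in genes averaging at least 20 allelic reads, and levels of each allele used a pseudocount of 0.05 CPM. The test of each allele alone needed 10 reads on average. Library values were compared by exact two-sided permutation (scipy 1.17.1). Scripts were tested on simulated data. Replicates of a genotype differed beyond sampling noise (chi-square p under 0.05 in 32.5% to 44.3% of genes).

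Genes were named by rule: the 15 highest and 15 lowest fold changes among called genes with at least 5 CPM and no overlap between libraries, up to 4 called genes per list (2 if none), 6 X-linked genes per direction, 6 allelic shifts each way, the 6 lowest 129 shares, and Xist. Members and lists were chosen with earlier results of these data known. Other members of a list and the genes called between RepB-/- and RepB+/- were named after their values were seen. The 31 lists hold 3 added later. Alternatives were DESeq2 1.42.0, RLE scaling, TMM from autosomal genes, no filter, 4 libraries only, a replicate block, other read minimums, a pseudocount of 0.5 CPM, and leaving out each library. The other 44 samples were not analysed here. Intervals (95% Wilson) and limits for a count of 0 (3 reads) cover counting error only.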

Additional observations from a re-analysis of the deposited data

How the results depend on the processing

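No named gene reversed direction with a call under any alternative run. Leaving out 1 of the 6 libraries in the fit gave 440 to 1541 genes that rose and 247 to 1219 that fell (X-linked 84 to 221 and 9 to 38, autosomal 356 to 1320 and 238 to 1181), the lowest without WT replicate 2, and 67 to 137 and 38 to 91 calls summed over the lists. The X-linked ratio was called toward 129 in 166 to 241 genes and toward CAST in 1 throughout, the difference of the median 129 share was 28.18 to 29.57 percentage points, and the median log2 change was 2.486 to 2.579 for 129 reads and -0.2117 to -0.07407 for CAST reads. Same-numbered libraries deviated together with correlations of 0.11, 0.07 and 0.19, so the replicate numbers were not taken to pair the libraries. With a replicate block 1667 genes rose and 1493 fell (autosomal 1436 and 1451).

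RepB-/- against RepB+/- varied most. Higher and lower genes were 13 and 17 by DESeq2, 50 and 74 with no filter, 31 and 49 with a replicate block, 1 and 5 with 4 libraries only, and 1 to 16 and 1 to 50 without 1 library. The cause was not tested. DESeq2, RLE scaling and TMM from autosomal genes kept 1582, 1894 and 1899 of the 1933 calls against WT, with 51.5%, 54.4% and 59% of their calls upward against 57% in the reported fit.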
